A study of Homo sapiens with 4 samples.

Results

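A set of 10 genes for ion channels that open under membrane tension, or that are relatives of such channels, was followed in Hs578T cells after knockdown of talin-1. They are 3 two-pore domain potassium channel genes (KCNK2, KCNK1, KCNK6), both PIEZO genes, 3 TRP channel genes (TRPV4, TRPC1, TRPM7) and 2 TMEM63 genes (TMEM63A, TMEM63B), that is 10 of the 60721 genes counted. The set was chosen by the CPM of KCNK2, which was lower after the knockdown in these libraries, so the fall of KCNK2 is given as a description with no test, and the other 9 genes were taken for their place in the same families. All 10 had a row in the authors' deposited table of log2 CPM values, and 0 were missing from it. Hs578T is an established human breast carcinoma line. Cells of both groups were co-transfected with GFP, and they received either a non-targeting control siRNA (SCR) or an siRNA against TLN1 (siTLN1), at 1.6 µM, with RNA collected at 48 h. Each group had 2 biological replicates, whose count libraries are called a and b here. All values come from 1 line, and the siRNA sequences are not given in the sources used here.

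Mechanosensitive channels turn a pull on the plasma membrane into an ion current. PIEZO, TRP and TMEM63 channels let cations in, and calcium among them acts as a signal, whereas two-pore domain potassium channels pass an outward leak of potassium that holds the membrane potential negative. Talin-1, the TLN1 product, couples integrins to actin and carries the tension of cell-matrix adhesions, at which some of these channels are known to act.

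Total counts ran from 31854322 to 46353297 per library. TLN1 itself had 868.0 and 873.6 CPM in SCR against 51.9 and 44.8 CPM in siTLN1, which left 5.55% of the control mean. CPM are counts scaled to the size of the library, corrected by the trimmed mean of M values (TMM). Replicates differed by more than counting noise (chi-square per degree of freedom 12.3 in SCR and 16.1 in siTLN1). Of the markers checked against the label of breast cancer-derived epithelial cells, VIM, FN1, SPARC, COL1A1 and COL1A2 were abundant and KRT18 was present at 149.6 to 180.0 TPM (TPM being counts divided by exon length and scaled to the same sum in every library). KRT8 had 546 to 800 and GATA3 310 to 647 counts per library, while CLDN4 had 35 to 60 and CLDN3 0 to 1. EPCAM had 0 to 6 counts, KRT19 0 to 6, ESR1 3 to 6 and CDH1 13 to 40 counts per library. The 8 mesenchymal markers summed to 23381.4 to 24890.0 TPM in SCR and 21118.5 to 23207.5 TPM in siTLN1. The 9 leukocyte, endothelial and neuronal markers summed to at most 14.9 TPM in any library. Of these, SNAP25 had 177 to 270 and PECAM1 104 to 155 counts per library, and only CD3E had 0 counts in all 4. These are bulk RNA values, so fewer cells with a transcript and less transcript per cell cannot be told apart.

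The sequences are shown first because 1 short word lies in the 3′ UTR of KCNK2 in the transcripts read. Of the 10 genes 1 holds it there, near the 8.04% of all genes scanned. KCNK1 and TRPV4, under 5 CPM on average, and PIEZO2, with 0 bases of 3′ UTR in the transcript read, were outside that scan. PIEZO2, TRPV4 and TMEM63A hold it in coding sequence only, and the share of all genes with a coding copy was not counted. The 3′ UTR, the part of an mRNA after its stop codon, is where microRNAs pair through a short seed, and siRNAs are known to pair with unintended transcripts in the same manner. All 7-base words in the 3′ UTRs of 9496 protein-coding genes other than TLN1, each with 5 CPM or more on average and 100 or more bases of 3′ UTR, were ranked by the mean log2 fold change of the genes that hold them. Of 16081 words held by at least 50 genes, the lowest mean, −0.15, belonged to GACAACA, read on the transcript strand only. It is held by 763 genes (8.04%). Their median log2 fold change was −0.10 against 0.0089 for the 8733 genes without it, and 152 of the 763 were called lower (19.9%) against 347 of the 8733 (3.97%). The word was chosen on these fold changes, that of KCNK2 among them, so the medians and counts describe the choice and are no test of it.

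KCNK2 holds 1 copy of the word in the 3′ UTR of KCNK2-203, the transcript with the longest coding sequence, and nowhere in its coding sequence. Of its 9 annotated coding transcripts, 1 carries the word in its 3′ UTR. PIEZO2 and TRPV4 hold 2 copies each and TMEM63A 1 copy, in coding sequence only. KCNK1, KCNK6, PIEZO1, TRPC1, TRPM7 and TMEM63B lack it in the transcripts chosen and in every annotated coding transcript. The PIEZO2 transcript chosen has an annotated 3′ UTR of 0 bases, and none of its 10 coding transcripts holds the word in a 3′ UTR. TLN1 holds 1 copy, in coding sequence. Transcripts and positions are from GENCODE 29 on GRCh38, and the capitals mark the word. The KCNK2 site is at chr1:215235548-215235554 (plus strand, 3′ UTR), the TRPV4 site shown at chr12:109814436-109814442 (minus strand, coding), the TMEM63A site at chr1:225867132-225867138 (minus strand, coding), the PIEZO2 site shown at chr18:10759542-10759548 (minus strand, coding) and the TLN1 site at chr9:35706037-35706043 (minus strand, coding).
KCNK2 3′ UTR: catttatggatGACAACAatttttttttt
TRPV4 coding: accactccagtGACAACAagaggtggagg
TMEM63A coding: agttttgggagGACAACAatagcaaacct
PIEZO2 coding: ccagcttcaatGACAACAtcataaagtgg
TLN1 coding: gtagaggacctGACAACAaccctcaacga
KCNK2 had a log2 fold change of −1.64, the third lowest (rank 3) of the 763 holders. TRPV4, TMEM63A and PIEZO2, with coding copies only, had log2 fold changes of 0.31, −0.0002 and 0.07. Of the 65 tested genes of the other channel, partner and calcium entry lists, 6 hold the word in the 3′ UTR of the transcript read. The share over the genes scanned was 8.04%. Other annotated transcripts of PKD1, MCOLN3, KCNMA1, MTSS1, ITPR1, ATP2A2 and SARAF hold it in the 3′ UTR too. The log2 fold changes of the 6 were −0.73 (STOM), −0.56 (KCNN4), −0.22 (ORAI2), −0.05 (ITPR2), 0.18 (CNNM2) and 0.87 (AKAP5). They lay on both sides of 0. Among the markers, CDH2 (−0.89), PTPRC (−0.28), SNAP25 (−0.22), ZEB1 (−0.09) and KDR (0.17) hold it in the 3′ UTR of the transcript read. Of the genes named further on, LRRC8A (−0.44), LRRC8D (−0.41), SARAF (−0.33), LRRC8C (0.32) and STIM2 (0.57) have copies in coding sequence only in the transcripts read. The same holds for SPARC (−0.48), KRT8 (−0.24), MCOLN1 (−0.07), COPB1 (−0.01), FN1 (0.25) and ATP2A2 (0.26). KRT8, like SARAF and ATP2A2, holds the word in the 3′ UTR of other annotated transcripts. The part of the word in any of these levels was not tested.

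**Figure D1:**
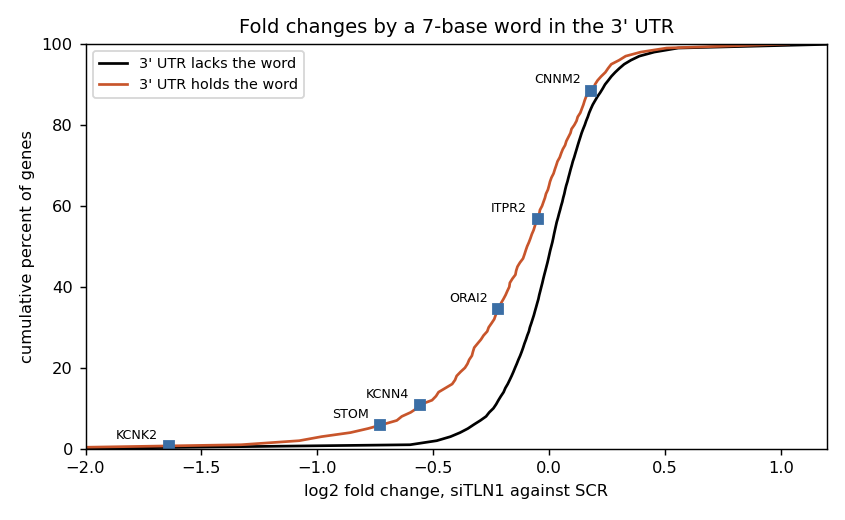
Cumulative percent of genes (vertical axis) by log2 fold change of siTLN1 against SCR (horizontal axis, cropped at −2 and 1.2), for the 763 genes whose 3′ UTR holds the 7-base word and the 8733 that lack it. Squares mark the holders among the channel, partner and calcium entry genes at 5 CPM or more, and KCNK2 sits at the far left, at −1.64.

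Per length of transcript, the channels fell into 3 tiers in control cells. PIEZO1 (79.1 and 81.9 TPM), PIEZO2 (72.0 and 60.4), TMEM63B (59.8 and 58.1) and KCNK2 (49.3 and 46.2) formed the upper tier of TPM levels. TRPM7 (27.2 and 21.1 TPM), TRPC1 (26.3 and 19.7) and TMEM63A (14.4 and 12.1) lay between, and KCNK6 (7.23 and 8.98 TPM), TRPV4 (4.10 and 4.42) and KCNK1 (1.06 and 0.482) were low. TRPM7 and TRPC1 overlapped in SCR, and no other neighbours in this order did. In siTLN1, KCNK2 stood below TRPC1, with 15.3 and 14.4 TPM against 18.3 and 16.3 TPM, and PIEZO1, PIEZO2 and TMEM63B overlapped with one another. TMEM63A and KCNK6 overlapped there too. The 10 genes together summed to 327.0 ± 19.4 TPM (SD, n = 2) in SCR and 287.5 ± 21.3 TPM (SD, n = 2) in siTLN1.

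**Figure D2:**
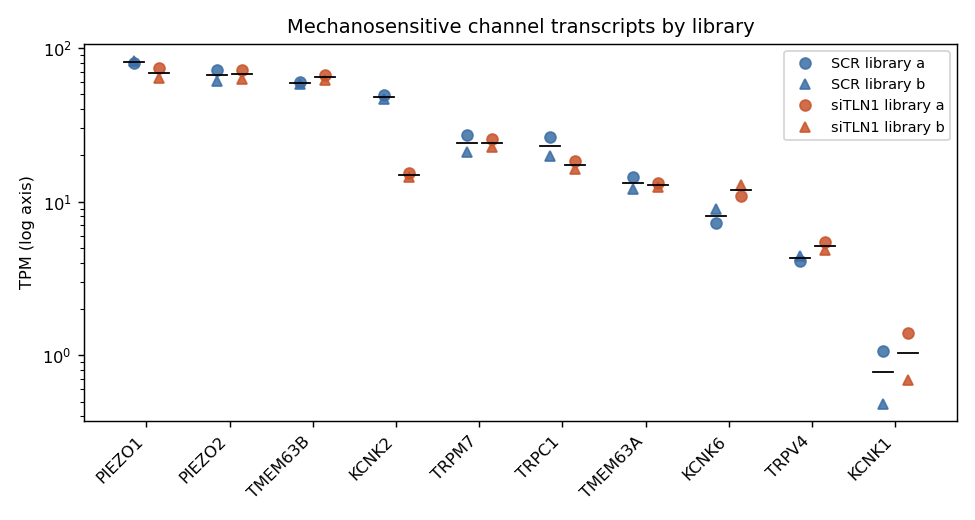
TPM of each of the 10 channel genes (log axis) in SCR libraries (blue) and siTLN1 libraries (orange), circles for library a and triangles for library b, with black bars at the group means. KCNK2 is at 49.3 and 46.2 in SCR and at 15.3 and 14.4 in siTLN1, while the groups lie close together for most others.

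The two-pore domain potassium channels were the family in which a member had lost most of its transcript. KCNK2 (ENSG00000082482.13; GRCh38, chromosome 1, 215005775 to 215237093, plus strand) encodes TREK-1, a potassium leak channel opened by membrane stretch and by arachidonic acid. It had 1387 and 1489 raw counts in SCR and 522 and 629 in siTLN1, that is 43.6 and 42.8 CPM against 14.3 and 13.4 CPM. Both siTLN1 libraries were far below both SCR libraries, and replicates differed by under 1 CPM. The siTLN1 mean of 13.9 ± 0.675 CPM (SD, n = 2) was 32.1% of the SCR mean of 43.2 ± 0.622 CPM (SD, n = 2). The fit gave −1.64 ± 0.10 (SE) as log2 fold change, the sixth lowest (rank 6) of 10476 genes with a symbol and a mean of at least 5 CPM. In the authors' deposited log2 CPM table, whose columns carry the replicate numbers, KCNK2 stood at 5.45 and 5.42 in SCR and at 3.85 and 3.75 in siTLN1. None of its exon bases is shared with another gene (0%).

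KCNK6 (ENSG00000099337.5; chromosome 19, 38319845 to 38332076, plus strand) encodes TWIK-2, a relative of TREK-1 that gives small potassium currents and is found in lysosomes as well. It moved the other way. Its counts were 321 and 456 in SCR and 583 and 881 in siTLN1, and its CPM values 10.1 and 13.1 against 16.0 and 18.7. The groups did not overlap, although the lower siTLN1 library was within 3 CPM of the higher SCR library. The log2 fold change was 0.58 ± 0.14 (SE), with an adjusted p of 0.0191 in the quasi-likelihood test of edgeR (Benjamini-Hochberg over all 16137 genes tested). KCNK6 was the only 1 of the 9 genes other than KCNK2 that passed the threshold of 0.05, which 6.07% of all genes tested passed, and 2.30% passed as higher. The call was lost when SCR library a (log2 fold change 0.41, adjusted p 0.0801) or siTLN1 library b (0.47, adjusted p 0.107) was left out. In each such fit 1 group has a single library, which is assumed to vary like the other group, so here and below these fits show how calls depend on a library and are no further evidence for them.

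KCNK1 (ENSG00000135750.15; chromosome 1, 233614106 to 233672514, plus strand) encodes TWIK-1, a weak potassium leak channel. It was near the lower limit of the test, with 27 and 14 counts in SCR and 43 and 27 in siTLN1. Its CPM values of 0.849 and 0.402 against 1.18 and 0.575 overlapped between groups, and its log2 fold change of 0.45 had an interval from −0.47 to 1.38 (adjusted p 0.628 by the same test). Of the other 12 family members, KCNK7 alone reached the test. It had 7 and 12 counts in SCR and 27 and 31 in siTLN1, with a log2 fold change of 1.28 and an adjusted p of 0.0797. KCNK3, KCNK9, KCNK10, KCNK12, KCNK13 and KCNK15 had at most 5 counts in any library, and KCNK4, KCNK5, KCNK16, KCNK17 and KCNK18 had 0 in all 4.

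The make-up of the family therefore differed between groups. Of all two-pore domain channel TPM, KCNK2 made up 84.4% and 81.4% in SCR against 51.4% and 48.1% in siTLN1. KCNK6 made up 12.4% and 15.8% in SCR and 36.4% and 42.7% in siTLN1. The family total was 57.6 ± 1.13 TPM (SD, n = 2) in SCR and 29.9 ± 0.271 TPM (SD, n = 2) in siTLN1, lower in both siTLN1 libraries than in either SCR library. These shares rest on KCNK2, on which the set was chosen, and were not tested.

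**Figure D3:**
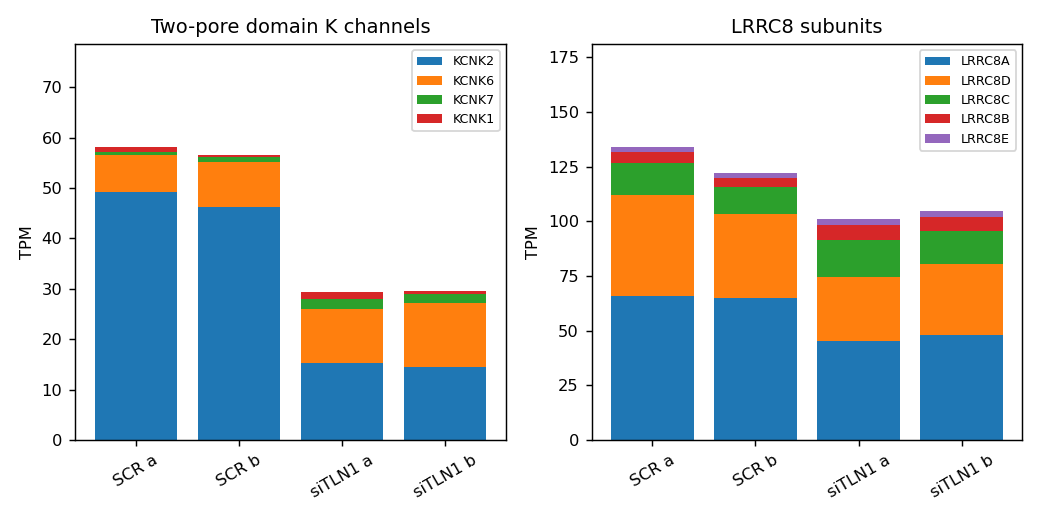
Stacked TPM of the 4 two-pore domain potassium channel genes that reached the test (left) and of the 5 LRRC8 subunits (right) in each library. KCNK2 fills most of the SCR bars at 49.3 and 46.2 TPM and about the same part as KCNK6 in siTLN1 library b, at 14.4 against 12.8 TPM.

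The PIEZO genes were the most abundant channels of the set and neither passed the test. PIEZO1 (ENSG00000103335.22; chromosome 16, 88715338 to 88785220, minus strand), a large trimeric cation channel opened directly by membrane tension, had 202.2 and 218.6 CPM in SCR against 201.7 and 170.2 CPM in siTLN1. The groups missed overlap by less than 1 CPM. Its log2 fold change was −0.18 (95% interval −0.39 to 0.04, adjusted p 0.356 by edgeR), and it was not called in any fit without a library (−0.30 to −0.06). Genes on the opposite strand share 20.3% of the exon bases of PIEZO1, and the counting used no strand option, so its count is uncertain. PIEZO2 (ENSG00000154864.12; chromosome 18, 10666483 to 11148762, minus strand), best known from touch neurons, had 241.3 and 211.4 CPM in SCR and 255.6 and 219.3 CPM in siTLN1. These ranges overlapped, with a log2 fold change of 0.07 (interval −0.15 to 0.29, adjusted p 0.786). PIEZO2 was negative, at −0.02 and −0.04, when SCR library b or siTLN1 library a, respectively, was left out. MDFIC, which binds PIEZO channels as an auxiliary subunit, had a log2 fold change of −0.09 (adjusted p 0.733).

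Of the 3 TRP channels, TRPC1 came closest to the threshold. TRPC1 (ENSG00000144935.15; chromosome 3, 142724034 to 142807888, plus strand), a subunit of receptor- and store-operated cation channels, had 28.7 and 22.4 CPM in SCR and 21.2 and 18.5 CPM in siTLN1. Every siTLN1 value was below every SCR value, but the gap of library SCR b to siTLN1 a was smaller than the spread within SCR. The log2 fold change was −0.36 ± 0.13 (SE), with an interval from −0.63 to −0.09 and an adjusted p of 0.112 by edgeR. Without SCR library b it was −0.53 with an adjusted p of 0.00388, and without SCR library a it was −0.18. TRPV4 (ENSG00000111199.11; chromosome 12, 109783085 to 109833401, minus strand), a calcium-permeable channel activated by hypotonic swelling and heat, had 3.49 and 3.93 CPM in SCR against 4.92 and 4.34 CPM. Its log2 fold change was 0.31 (interval −0.04 to 0.67, adjusted p 0.329). TRPM7 (ENSG00000092439.16; chromosome 15, 50552473 to 50686797, minus strand), a magnesium-permeable channel fused to a kinase, had 76.3 and 61.7 CPM against 75.9 and 66.6 CPM, so that the siTLN1 range lay within the SCR range. Its log2 fold change was 0.05 (interval −0.19 to 0.29, adjusted p 0.881), and it was −0.10 and −0.05 when SCR library b or siTLN1 library a, respectively, was left out.

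The TMEM63 genes encode channels of the OSCA family, which respond to stretch and osmolarity. TMEM63A (ENSG00000196187.12; chromosome 1, 225845536 to 225882380, minus strand) had 33.8 and 29.5 CPM in SCR and 32.9 and 30.4 CPM in siTLN1, and its group means were both 31.7 CPM. The interval of its log2 fold change ran from −0.22 to 0.22 (adjusted p 0.999 by edgeR). TMEM63B (ENSG00000137216.19; chromosome 6, 44126914 to 44155519, plus strand) had 59.9 and 60.8 CPM in SCR and 70.8 and 65.1 CPM in siTLN1, with both siTLN1 libraries above both SCR libraries. Its log2 fold change of 0.17 had an interval from −0.03 to 0.37 (adjusted p 0.345).

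Across the 9 genes other than KCNK2, 6 had a fitted change above 0 and 3 below, with a median log2 fold change of 0.069 against 0.0033 over all genes tested. The libraries of the groups did not overlap for 5 of the 9, and did not for 48.4% of all genes tested. The intervals of PIEZO2, TRPM7, TMEM63A and TMEM63B lie between −0.22 and 0.37, whereas those of KCNK1 and TRPV4 reach 1.38 and 0.67. A fit with the number in the column names as a replicate block was added after seeing the data. It called 3709 of all 16137 genes tested, against 980 without the block. Of the 9 it called 4, namely KCNK6 and also PIEZO1 (−0.18, adjusted p 0.0292 by edgeR), TRPC1 (−0.36, adjusted p 0.000243) and TMEM63B (0.17, adjusted p 0.0479).

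**Figure D4:**
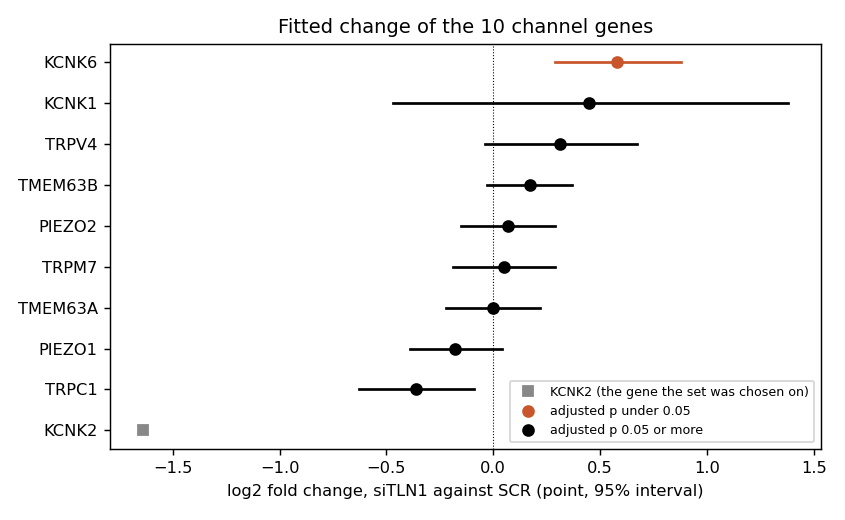
Fitted log2 fold change of siTLN1 against SCR (points) of the 10 genes, with the 95% interval (lines) of the 9 other than KCNK2. KCNK2 (grey square, no interval) is at −1.64 and is the gene on which the set was chosen. KCNK6 (orange) at 0.58 is the only other one past the threshold, and 7 of the remaining intervals cross 0.

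Other genes of the same systems were read from 5 lists written from general knowledge, with earlier results of these data known. They held 104 genes in all, of which 65 were tested, 6 were called higher and 8 lower. The background over all genes tested was 2.30% higher and 3.77% lower. Given how the lists were chosen, their counts of calls are a description and no test of a class of genes. Among 25 other TRP channel genes, 14 were tested and 1 passed. TRPM3, a steroid- and heat-activated channel, had 42 and 45 counts in SCR and 27 and 23 in siTLN1, a log2 fold change of −1.11 (adjusted p 0.0391 by edgeR), and it passed neither in any of the 4 fits that left out a library (−1.41 to −0.81) nor when low counts were not filtered (adjusted p 0.0674). The 3 most abundant, PKD2 (polycystin-2), MCOLN1 (a lysosomal cation channel) and TRPM4 (a calcium-activated sodium and potassium channel), had log2 fold changes of 0.06, −0.07 and −0.06 with adjusted p from 0.797 to 0.833. The sign turned without SCR library b for PKD2 and TRPM4, without siTLN1 library a for PKD2 and without siTLN1 library b for MCOLN1.

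The list of other stretch-, volume- and tension-gated channels held more calls, 3 higher and 4 lower of 20 tested (31 listed). Its median log2 fold change was 0.289. As the list was chosen with earlier results known, this count is a description. GJA1, which encodes connexin 43 of gap junctions and hemichannels, was the most abundant. It had 384.9 and 335.6 TPM in SCR and 565.0 and 494.1 TPM in siTLN1, both siTLN1 libraries above both SCR libraries. Its log2 fold change was 0.60 ± 0.10 (SE) (adjusted p 0.00174 by edgeR), and it passed in all 4 fits without a library. KCNN4, the calcium-activated potassium channel KCa3.1, had 43.0 and 53.4 CPM in SCR and 28.7 and 36.7 CPM in siTLN1, a log2 fold change of −0.56 (adjusted p 0.0270), which was −0.39 and not called without siTLN1 library a. It was not called either when low counts were not filtered (adjusted p 0.0572). PANX1 (pannexin-1) and TMEM87A, the next in abundance, had log2 fold changes of 0.19 and 0.32 that did not pass (adjusted p 0.309 and 0.0684), and TMEM87A passed without SCR library a (0.41).

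The LRRC8 genes encode the subunits of the volume-regulated anion channel, in which LRRC8A is obligatory and the others decide what passes. LRRC8A fell from 78.2 and 80.3 CPM to 57.2 and 59.5 CPM, a log2 fold change of −0.44 (adjusted p 0.00894 by edgeR). LRRC8D fell from 50.8 and 44.2 CPM to 34.2 and 37.1 CPM (−0.41, adjusted p 0.0250). LRRC8B rose from 9.50 and 8.18 CPM to 13.6 and 12.1 CPM (0.54, adjusted p 0.0208). LRRC8C and LRRC8E had log2 fold changes of 0.32 and 0.37 that did not pass (adjusted p 0.0705 and 0.320). The 3 calls were lost without siTLN1 library a, with log2 fold changes of −0.41 (LRRC8A), −0.35 (LRRC8D) and 0.46 (LRRC8B), as were those of LRRC8D without SCR library a (−0.31) and of LRRC8B without SCR library b (0.44). LRRC8D was not called when low counts were not filtered (adjusted p 0.0678). Genes on the opposite strand share 10.5% of the exon bases of LRRC8B and 74.3% of those of LRRC8E. The 5 subunits together had 128.0 ± 8.63 TPM (SD, n = 2) in SCR and 103.0 ± 2.43 TPM (SD, n = 2) in siTLN1.

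The 2 remaining calls of that list were small or of low abundance. TMEM120A, a membrane protein also called TACAN, had 61.6 and 63.4 TPM in SCR and 46.1 and 45.5 TPM in siTLN1 (log2 fold change −0.41, adjusted p 0.0266 by edgeR), and passed in 1 of 4 fits without a library (−0.46 to −0.35). It was not called without SCR library b (−0.35), siTLN1 library a (−0.42) or siTLN1 library b (−0.38), nor when low counts were not filtered (adjusted p 0.0628). TMC6, a relative of the hair-cell channel subunits TMC1 and TMC2, had 10 and 15 counts in SCR and 47 and 48 in siTLN1. Its log2 fold change was 1.60 (adjusted p 0.0118 by edgeR), with 1.44 and no call without siTLN1 library a. Other genes share 15.5% of the exon bases of TMC6 on the same strand and 2.66% on the opposite strand.

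Of 27 auxiliary and trafficking genes, 21 were tested, 2 were called higher and 1 lower, with a median of 0.068. STOM (stomatin), a membrane scaffold protein that modulates acid-sensing channels, fell from 83.1 and 74.4 CPM to 46.5 and 48.2 CPM, a log2 fold change of −0.73 ± 0.10 (SE) (adjusted p 0.000227 by edgeR). It passed in all 4 fits without a library. AKAP5, an anchor for protein kinase A that is known to act on TREK-1, rose from 44 counts in each SCR library to 90 and 111 counts (0.87, adjusted p 0.0282). ARL15, a small GTPase that acts on TRPM7 and the CNNM magnesium transporters, had 349 and 314 counts in SCR and 502 and 688 counts in siTLN1 (0.51, adjusted p 0.0252). AKAP5 and ARL15 kept their call in 1 of 4 fits without a library each. Without SCR library b, siTLN1 library a and siTLN1 library b in turn, AKAP5 had 0.80, 0.84 and 0.91 and ARL15 0.37, 0.55 and 0.47, and neither was called under DESeq2 (adjusted p 0.180 and 0.0583). The 3 most abundant genes, OS9, COPB1 and ATP2A2, had log2 fold changes of 0.07, −0.01 and 0.26 with adjusted p of 0.760, 0.983 and 0.142. COPB1 had 0.04 with SCR library a left out and 0.01 with siTLN1 library b left out.

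All 9 genes of store-operated calcium entry, the route in which STIM sensors of the endoplasmic reticulum open ORAI channels, were tested. Of these, 1 was called higher and 2 lower, with a median of −0.085. STIM2 rose from 47.8 and 44.8 CPM to 70.8 and 67.0 CPM, a log2 fold change of 0.57 ± 0.10 (SE) (adjusted p 0.00165 by edgeR), in all 4 fits without a library. HOMER3, a scaffold at calcium channels, had 64.0 and 71.3 CPM in SCR and 44.0 and 50.6 CPM in siTLN1 (−0.52, adjusted p 0.00627, and −0.42 and not called without siTLN1 library a). SARAF, an inhibitor of this entry, went from 214.8 and 220.8 CPM to 166.9 and 179.2 CPM (−0.33, adjusted p 0.0409), and passed neither in any of the 4 fits without a library (−0.38 to −0.28) nor with no filter (adjusted p 0.094). Exon overlap with the opposite strand was 12.1% for SARAF and 10.9% for HOMER3, and HOMER3 shares 12.3% on the same strand. STIM1 did not pass (−0.09, adjusted p 0.714), and its sign turned without siTLN1 library b (0.01).

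**Figure D5:**
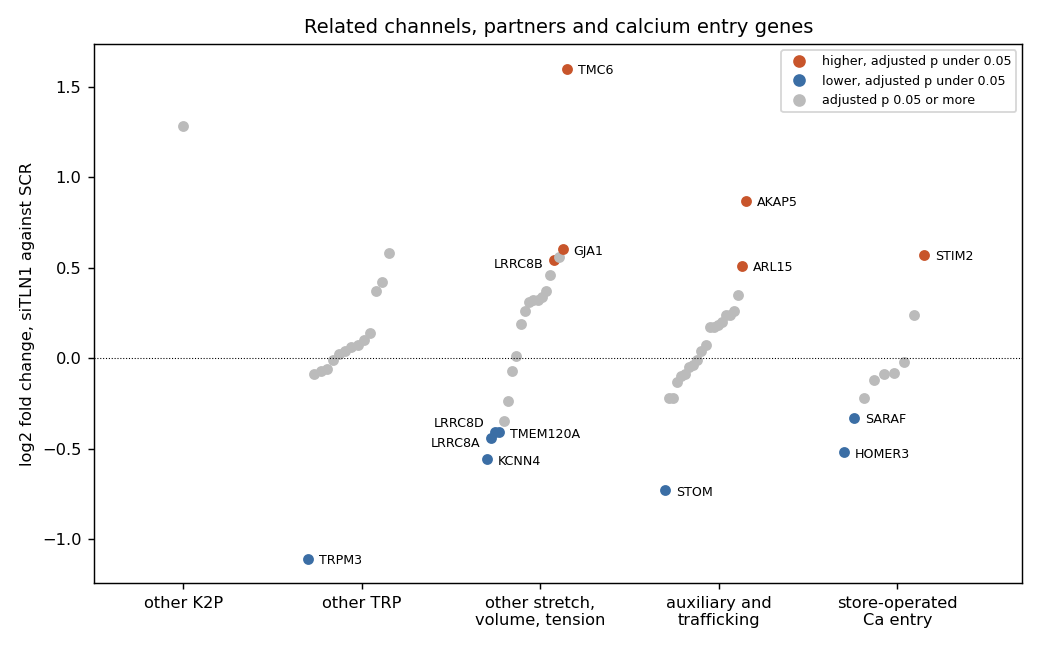
Log2 fold change of siTLN1 against SCR for the 65 tested genes of 5 lists, spread along the horizontal axis by rank within a list. The 6 genes called higher (orange) and 8 called lower (blue) are named, and grey points did not pass.

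Among the marker lists, 2 of 8 mesenchymal genes were called lower, as were 3.77% of all genes tested. CDH2, the adhesion molecule N-cadherin, stood at −0.89 on the log2 scale (adjusted p 2.45e-05 by edgeR), and SPARC had one of −0.48 (adjusted p 0.0161), which passed in none of the 4 fits without a library (−0.52 to −0.43). FN1 (0.25, adjusted p 0.343) and COL1A1 (−0.19, adjusted p 0.444) did not pass. None of the 5 epithelial and 6 other cell type markers tested passed the edgeR threshold without a replicate block. KRT18, GATA3 and KRT8 had 0.02, 0.33 and −0.24, and SNAP25, CD14 and PECAM1 −0.22, −0.39 and −0.41. CDH1, at 13 to 40 counts per library, had the highest of the epithelial list, 0.83 (adjusted p 0.192 by edgeR). Of the 5 epithelial markers tested, 3 lay above 0 and 2 below. With the block, FN1, GATA3 and KRT8 passed (adjusted p 0.0314, 0.01 and 0.0349 by edgeR). The part of these markers in the channel values was not tested.

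The genes whose levels over the 4 libraries lay nearest to those of KCNK2 were MYBL2, EPAS1, MYPN, DHRS7B and RCN2. The measure was the Euclidean distance of log2 CPM centred on each gene's mean, over 10475 genes with a mean of at least 5 CPM, and it ran from 0.147 for MYBL2 to 0.269 for RCN2. MYBL2 had 223.9 and 213.9 CPM in SCR and 69.7 and 74.6 CPM in siTLN1. With 4 libraries in 2 groups, this nearness reflects the size of the group difference above all, and it is a description.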

How the data were processed

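PolyA RNA of 4 Hs578T libraries was sequenced. The authors deposited gene-level read counts from featureCounts 2.0.0, run on read pairs against GENCODE 33 (GRCh38) with no strand or multi-mapping option, per the file headers, together with exon lengths. STAR 2.7.9a and edgeR 3.34.1 are named in the submitters' processing notes. The authors also deposited a log2 CPM table of 16137 genes, whose making is not given in the sources used here. The count columns name the group and carry a number, 6 (library a here) or 7 (library b), that occurs once in each group. No source says what the number marks or ties it to the replicate numbers of the labels, so it was used as a block only in an alternative (0 columns left unmapped). Symbols were matched for 60357 of 60721 gene IDs.

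Counts were tested with edgeR 4.0.16 in R 4.3.3 (quasi-likelihood): filterByExpr (minimum count 10, minimum total 15), TMM scaling, glmQLFit (robust) and glmQLFTest, with Benjamini-Hochberg adjustment over 16137 genes and a threshold of 0.05. The biological coefficient of variation was 0.0805. P-values measure only the spread between these 4 libraries. TPM were computed from counts and exon lengths. For the word search, each gene was represented by its GENCODE 29 transcript with the longest coding sequence. The procedures were tested on simulated data. The channels and lists were chosen with earlier results of these data known. Named genes are the 10 channels, TLN1, every called gene and the 3 highest in mean TPM of each list, plus the 5 nearest to KCNK2. Other genes named (LRRC8C, LRRC8E, MDFIC, further holders of the word, and the markers and family members at low counts) were chosen after their values were seen. Alternatives were DESeq2 1.42.0, other scalings, no filter, limma 3.58.1 on the deposited log2 values with and without a replicate block, and leaving out each library. The edgeR fit with the column number as block was added after seeing the data.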

Additional observations from a re-analysis of the deposited data

How the results depend on the processing

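Of the tested genes named, KCNK1, KCNK7, TMC6, TRPM3, CD14, CDH1 and PTPRC had under 50 counts in every library. All genes had 2 libraries per group. How far depth or the number of libraries limited each call was not tested. KCNK2 ranged from −1.69 to −1.59 in log2 fold change without 1 library and from −1.64 to −1.63 under the other settings. Called genes numbered 980, against 979 with RLE scaling, 1253 with total counts, 663 with no filter, 789 with DESeq2 and 966 when the deposited log2 CPM were fitted by limma-trend, and 324 to 1100 without 1 library, lowest without siTLN1 library a. Of the 9 channels other than KCNK2, 1 was called under each of those 5 settings and 0 to 2 without 1 library.

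With the replicate number as a replicate block in limma-trend, called genes rose to 3645 (970 shared with the 980) and channels called to 4. With the number in the count column names as a block in edgeR, chosen after seeing the data, they were 3709 (971 shared) and 4. Both blocks added PIEZO1, TRPC1 and TMEM63B (limma adjusted p 0.0352, 0.000359 and 0.0482), and KCNK7, PANX1, TMEM87A, ATP2A2, GATA3, KRT8 and FN1 among the other named genes. In the deposited log2 CPM, libraries of the same replicate number deviated together. The correlation was r = 0.19 over 16137 genes and 0.537 over the 10487 with at least 5 CPM. It was not computed for the number in the count column names. No source says what that number marks, and with 2 pairs the correlation does not settle the pairing.

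The sign of TMEM63A, which is near 0, turned with RLE scaling (0.0015), no filter (0.01), limma-trend (0.0021) and the blocks (0.0021 and 0.0024), and that of COPB1 with no filter (0.01); the cause was not tested. Signs also turned without 1 library, with ranges of −0.10 to 1.07 (KCNK1), −0.04 to 0.18 (PIEZO2), −0.10 to 0.21 (TRPM7), −0.09 to 0.10 (TMEM63A), −0.08 to 0.20 (PKD2), −0.16 to 0.03 (MCOLN1), −0.18 to 0.06 (TRPM4), −0.05 to 0.04 (COPB1), −0.18 to 0.01 (STIM1) and −0.13 to 0.20 (KRT18). With no filter 5 calls were lost (TRPM3, LRRC8D, TMEM120A, KCNN4 and SARAF) and with DESeq2 2 (ARL15 and AKAP5). DESeq2 gave no adjusted p for KCNK1, KCNK7, TRPM3, TMC6 and CD14, which are not counted. With all 4 libraries, 58 of 69 values of the channels and 218 of 241 values of the other named genes kept direction and call. The 69 include KCNK2, for which no call was compared. Its values counted as kept when the log2 fold change moved by less than the pooled SD of the replicates.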
